A study of Mus musculus with 8 samples.

Results

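Resident macrophages are the tissue's long-lived phagocytes, and 10 genes that mark them were followed through 8 RNA-seq libraries of whole mouse kidney. The genes were taken by name from the 37583 genes listed per library, and each was found once. They are Adgre1, Cd68, C1qa, C1qb, C1qc, Csf1r, Lyz2, Cx3cr1, Mrc1 and Fcgr1. There were 4 libraries labelled knockout, from mice described as Six2Cre+TFAP2Afl/flTFAP2Bfl/WT, that is with a Six2-driven Cre, both Tfap2a alleles floxed and 1 Tfap2b allele floxed. The other 4 are given only as WT. The labels give no age and do not say whether each library is a separate animal, so a p-value here speaks of variation among libraries, which may be technical. Knockout 1 to 4 and wildtype 1 to 4 below are names of libraries by label.

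Six2 marks nephron progenitors, which give rise to the tubule and the glomerular epithelium, whereas kidney macrophages descend from blood-forming precursors and lie in the interstitium between the tubules. They depend on the receptor Csf1r and its ligands CSF1 and IL-34, they are placed in the tissue partly through Cx3cr1 and its ligand CX3CL1, and they make C1q, the recognition part of the complement C1 complex, which binds antibody and dying cells. F4/80, the protein of Adgre1, is the usual surface marker of these cells in the mouse.

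Gene counts totalled 13871861 to 16629301 per library. Levels are given as CPM, the reads of a gene scaled to a common library size. Umod, the uromodulin gene of kidney tubules, stood at 3562 to 5006 CPM. All 8 libraries had Ddx3y of the Y chromosome at 72.1 to 92.3 CPM and Xist at 0.57 to 1.00 CPM. Tfap2a averaged 5.05 ± 0.99 CPM under the knockout label and 4.22 ± 1.08 CPM under the wildtype label (SD, n = 4 each), and Tfap2b ranged from 58.0 to 103 CPM and from 51.8 to 100.4 CPM. Neither targeted gene was lower under the knockout label. Counts over a whole gene include exons outside a deleted part, so the labels could not be checked this way. Some libraries stood apart, across the labels for adrenal markers and only under the knockout label for red cell and heat-shock genes. The 10 adrenal markers summed to 952 CPM in knockout 2 and 929 CPM in wildtype 1 against 4.78 to 11.6 CPM elsewhere, red cell genes reached 7842 CPM in knockout 1 against 178 to 1384 CPM elsewhere, and heat-shock genes were highest in knockout 4 and knockout 2 (1453 and 957 CPM).

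The 3 C1q genes lie side by side on chromosome 4. Of the pairs described below, C1qc with Mrc1 and C1qb with C1qc had the highest Pearson correlations. Promoter sequence is shown for C1qb and C1qc, the neighbouring chain genes, and for Mrc1, the gene of another chromosome of these pairs. It is the part of the 250 bases before the RefSeq transcript start (build GRCm38.p6) that no GENCODE exon covers, 5′ to 3′ on the gene's strand: chr4:136886201-136886450 (minus strand), chr4:136893066-136893164 (minus strand) and chr2:14229164-14229391 (plus strand). Capitals mark GAGGAA or its reverse complement TTCCTC, a short form of the site read by PU.1, the transcription factor of myeloid cells encoded by Spi1.
C1qb: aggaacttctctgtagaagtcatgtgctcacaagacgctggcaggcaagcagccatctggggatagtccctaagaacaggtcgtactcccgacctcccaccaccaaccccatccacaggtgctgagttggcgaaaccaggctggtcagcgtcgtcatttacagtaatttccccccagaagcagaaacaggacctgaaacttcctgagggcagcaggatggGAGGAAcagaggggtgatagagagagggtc
C1qc: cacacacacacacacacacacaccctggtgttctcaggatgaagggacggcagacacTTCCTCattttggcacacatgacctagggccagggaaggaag
Mrc1: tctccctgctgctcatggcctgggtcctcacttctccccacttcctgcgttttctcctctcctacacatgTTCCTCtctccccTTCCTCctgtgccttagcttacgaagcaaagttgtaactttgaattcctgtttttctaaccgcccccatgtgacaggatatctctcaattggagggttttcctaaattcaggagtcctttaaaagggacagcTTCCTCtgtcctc
Counted from the RefSeq transcript start, the match begins at -30 in C1qb and at -193 in C1qc, while Mrc1 has matches at -180, -167 and -35. Of the 10 genes, 7 had a full window of 250 bases in the RefSeq table. GAGGAA on either strand was in 5 of these 7 (C1qb, C1qc, Cd68, Fcgr1 and Mrc1), and in 23.3% of all 32851 windows of the same length. TGCTGAC, part of the MAF site, was in 0 of 7 and in 3.81% of all windows, and TTGCNNAA, a form of the C/EBP site, was in 1 of 7 (Cd68) and in 9.56%. The 3 strings were read on both strands and cannot overlap one another. These are matches of letters, not measured binding.

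None of the 10 passed edgeR's quasi-likelihood test after adjustment over all 14433 genes tested, where 0% of all genes were called (smallest edgeR adjusted p = 0.957). With no adjustment, 0 of 10 had an edgeR p under 0.05, against 4.00% of all genes (2.17% higher and 1.84% lower under the knockout label). The groups overlapped for all 10 genes, and 1.97% of all genes did not overlap. All 10 passed the filter on low counts, the lowest single value being 12 reads. Differences were positive for 2 and negative for 8, with a median log2 difference (labelled knockout minus labelled wildtype) of -0.05, beside 0.01 over all tested genes, of which 51.3% were positive. The 95% intervals reached from -0.96 to 0.69 at their widest and lay within 1 log2 unit of 0 for all 10 genes, as they did for 86.5% of all genes. In bulk tissue, fewer macrophages and less RNA per macrophage cannot be told apart.

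**Figure D1:**
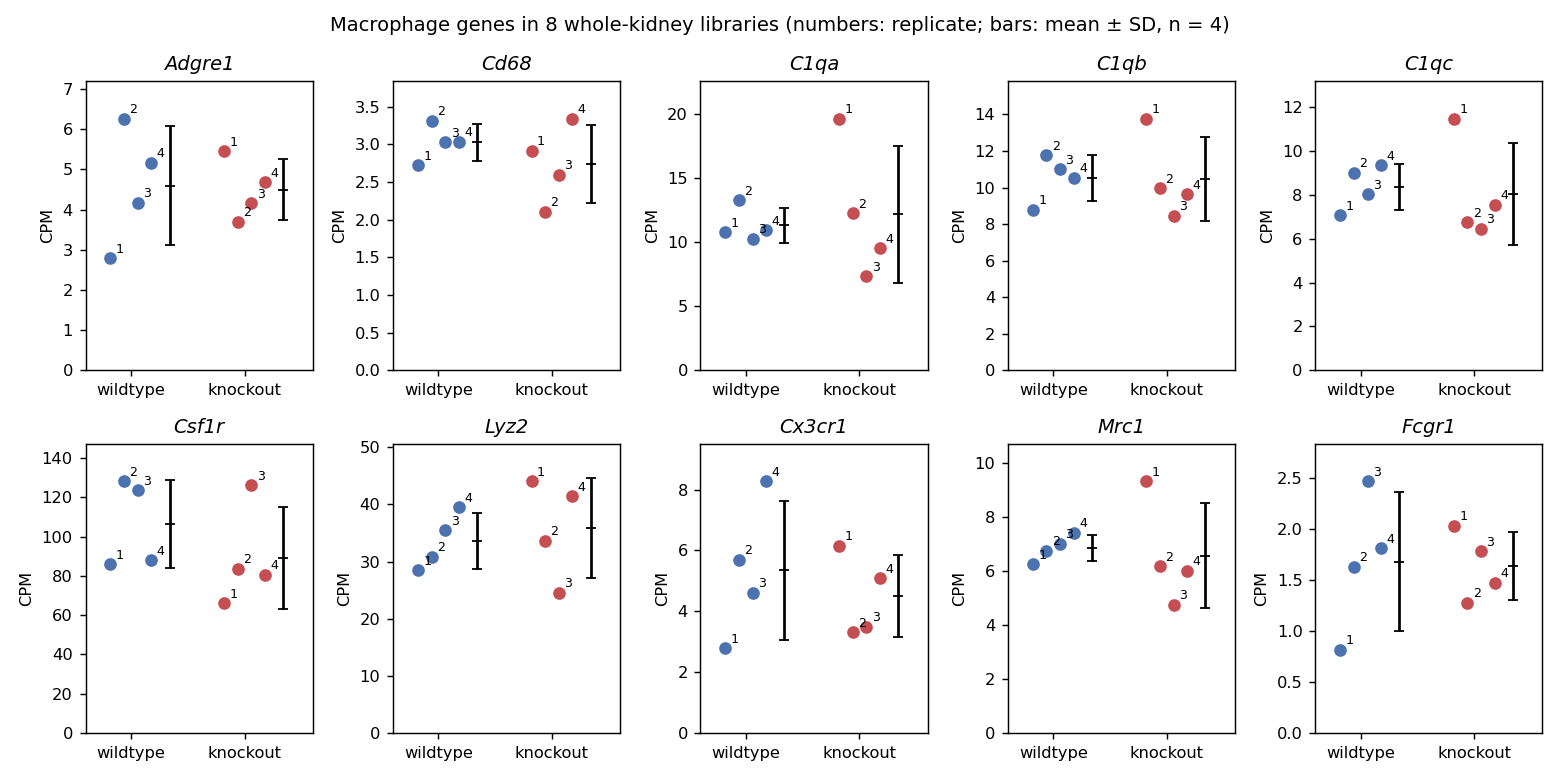
CPM of each gene in the 4 libraries labelled wildtype (blue) and the 4 labelled knockout (red), numbered by replicate, with mean ± SD as black bars; each vertical axis starts at 0. The groups overlap in every panel, and knockout 1 is the highest library for C1qa, C1qb, C1qc, Lyz2 and Mrc1.

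C1qa, C1qb and C1qc encode the A, B and C chains, which assemble together into C1q. C1qa (ENSMUSG00000036887; chromosome 4, 136895917 to 136898803 on GRCm38, minus strand) was at 19.6, 12.2, 7.35 and 9.49 CPM in knockout 1 to 4 and at 10.8, 13.3, 10.2 and 10.9 CPM in wildtype 1 to 4. Knockout 1 was highest and knockout 3 lowest, with every wildtype library between them. Its log2 difference of 0.11 (SE 0.26) had a 95% interval of -0.47 to 0.69 and an edgeR adjusted p of 0.969. Without knockout 1 the difference was -0.22. C1qb (ENSMUSG00000036905; chromosome 4, 136880129 to 136886187, minus strand) was at 13.8, 9.95, 8.46 and 9.62 CPM in knockout 1 to 4 and at 8.78, 11.8, 11.0 and 10.5 CPM in wildtype 1 to 4. Again knockout 1 was highest and knockout 3 lowest, and the group means were almost equal (log2 difference -0.01, SE 0.17). C1qc (ENSMUSG00000036896; chromosome 4, 136889804 to 136893065, minus strand) was at 11.5, 6.76, 6.46 and 7.55 CPM in knockout 1 to 4 and at 7.08, 9.01, 8.03 and 9.37 CPM in wildtype 1 to 4, a log2 difference of -0.05 (SE 0.20). The chains kept close to a fixed proportion: the log2 ratio of C1qc to C1qb stayed between -0.53 and -0.16 in all 8 libraries. The ratio of C1qa to C1qb ranged further, from -0.19 in knockout 3 to 0.49 in knockout 1.

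Adgre1 (ENSMUSG00000004730; chromosome 17, 57358691 to 57483527, plus strand), which encodes F4/80, was at 5.46, 3.70, 4.16 and 4.68 CPM in knockout 1 to 4 and at 2.79, 6.26, 4.17 and 5.17 CPM in wildtype 1 to 4. Both extremes were wildtype libraries, and the log2 difference was -0.03 (SE 0.25). Cx3cr1 (ENSMUSG00000052336; chromosome 9, 119901616 to 120069879, minus strand), the fractalkine receptor, was at 6.15, 3.32, 3.49 and 5.08 CPM in knockout 1 to 4 and at 2.79, 5.70, 4.61 and 8.27 CPM in wildtype 1 to 4. It was lowest in wildtype 1, as Adgre1 was, and highest in wildtype 4. Its log2 difference was -0.24 (SE 0.32), with a 95% interval of -0.96 to 0.47, and the value was 0.05 without wildtype 4. Fcgr1 (ENSMUSG00000015947; chromosome 3, 96282909 to 96293969, minus strand), the high-affinity receptor for IgG, was at 2.03, 1.28, 1.78 and 1.47 CPM in knockout 1 to 4 and at 0.82, 1.63, 2.46 and 1.81 CPM in wildtype 1 to 4. Its lowest value rests on 12 reads and its highest on 39, and the log2 difference was -0.04 (SE 0.33). Wildtype 1 was lowest and knockout 2 second lowest for all 3 of these receptors, and these are the 2 libraries with adrenal transcripts. They also had the highest adipocyte sums, 859 and 847 CPM. Knockout 1 came next at 789 CPM, and its levels of the 3 receptors (5.46, 6.15 and 2.03 CPM) were among the higher ones. Without both, the log2 differences were -0.12 for Adgre1, -0.33 for Cx3cr1 and -0.15 for Fcgr1. The part of adrenal or fat tissue in these levels was not tested.

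Mrc1 (ENSMUSG00000026712; chromosome 2, 14229392 to 14332057, plus strand) encodes the mannose receptor CD206, which takes up glycoproteins. It was at 9.33, 6.19, 4.75 and 6.01 CPM in knockout 1 to 4 and at 6.26, 6.76, 7.02 and 7.43 CPM in wildtype 1 to 4. The 4 wildtype values lay close together (6.87 ± 0.49), whereas knockout 2, knockout 3 and knockout 4 lay below all of them and knockout 1 above (6.57 ± 1.95 over the 4 knockout-labelled libraries). The log2 difference was -0.06 (SE 0.20). Lymphatic and sinusoidal endothelium can also carry Mrc1. Of its markers, Stab1 was at 19.7 to 33.1 CPM, Flt4 at 8.10 ± 1.82 and 7.77 ± 0.54 CPM under the knockout and wildtype labels, and Stab2 at 0 to 1.63 CPM. Their list summed to 46.8 to 71.4 CPM under the knockout label and 49.8 to 59.3 CPM under the wildtype label. Knockout 1, the highest library for Mrc1, and knockout 3, its lowest, were the 2 lowest for that list, at 46.8 and 47.6 CPM. The part of endothelium in the Mrc1 reads was not tested.

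Lyz2 (ENSMUSG00000069516; chromosome 10, 117277331 to 117282321, minus strand) encodes lysozyme M, which myeloid cells secrete, and Cd68 (ENSMUSG00000018774; chromosome 11, 69664213 to 69666153, minus strand) a glycoprotein of late endosomes and lysosomes. Lyz2 was at 44.0, 33.6, 24.6 and 41.4 CPM in knockout 1 to 4 and at 28.5, 30.9, 35.5 and 39.5 CPM in wildtype 1 to 4. Both extremes were again knockout 1 and knockout 3, and the log2 difference was 0.10 (SE 0.18). Its neighbouring copy Lyz1 was at no more than 0.81 CPM. Cd68 was at 2.92, 2.11, 2.60 and 3.34 CPM in knockout 1 to 4 and at 2.72, 3.32, 3.03 and 3.04 CPM in wildtype 1 to 4, a log2 difference of -0.14 (SE 0.20). The coefficient of variation of Cd68 over the 8 libraries was 14.1%, where counting alone gives 15.1% at its depth, so differences between libraries were not detectable for it at this depth.

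Csf1r (ENSMUSG00000024621; chromosome 18, 61100598 to 61132149, plus strand), the receptor that keeps macrophages alive, was the gene with the most reads of the set. It was at 66.2, 83.6, 126 and 80.7 CPM in knockout 1 to 4 and at 86.0, 128, 124 and 88.0 CPM in wildtype 1 to 4. Knockout 3, wildtype 2 and wildtype 3 were at 124 CPM or above, and the other 5 libraries were at 88.0 CPM or below. Knockout 3 was therefore among the highest for Csf1r and the lowest for C1qa, C1qb, C1qc, Lyz2 and Mrc1, and knockout 1 the lowest for Csf1r and the highest for those 5. Between the labels the log2 difference of -0.26 (SE 0.21) had a 95% interval of -0.72 to 0.20 and an edgeR adjusted p of 0.957. It was -0.47 without knockout 3 and -0.14 without knockout 1. These values rest on 1043 to 2046 reads per library, for which counting alone gives a coefficient of variation of 2.59% against the observed 24.8%. That spread stands at percentile 95 among the 200 tested genes nearest to Csf1r in mean CPM. Hmgxb3, which overlaps Csf1r on the other strand, was at 24.1 to 42.3 CPM. Counting did not use the strand, so strand could not assign reads of the shared stretch. Whether such reads were counted for Csf1r or left out as ambiguous was not tested.

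Il34, the gene of the Csf1r ligand that tubule cells make, was at 15.6, 17.6, 39.8 and 12.6 CPM in knockout 1 to 4 and at 17.1, 46.0, 39.2 and 30.7 CPM in wildtype 1 to 4. Its 3 highest libraries were those of Csf1r. The log2 difference of Il34 was -0.64 (SE 0.41; edgeR unadjusted p = 0.154). Csf1, the other ligand, was at 9.29 ± 0.61 and 9.26 ± 1.58 CPM under the knockout and wildtype labels. Cx3cl1, the ligand of Cx3cr1, was at 61.1 ± 7.27 and 67.5 ± 9.76 CPM. In a search added after the values of Csf1r were seen, the 12 tested genes of at least 1 CPM on average with the log2 profile closest to Csf1r, by Pearson's r over the 8 libraries, included Ift22, Slc22a7, Dnajc6, Slc12a7, Kcng1 and Slco1a1. No r is given, because the libraries fall into clusters by Csf1r. Slc22a7, an organic anion transporter of the proximal tubule, was at 254, 330, 650 and 345 CPM in knockout 1 to 4 and at 394, 626, 602 and 414 CPM in wildtype 1 to 4. Slco1a1, another transporter of that segment, was at 293, 608, 1448 and 632 CPM in knockout 1 to 4 and at 882, 1823, 1378 and 923 CPM in wildtype 1 to 4. Knockout 3, wildtype 2 and wildtype 3 were the highest libraries for both transporters.

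**Figure D2:**
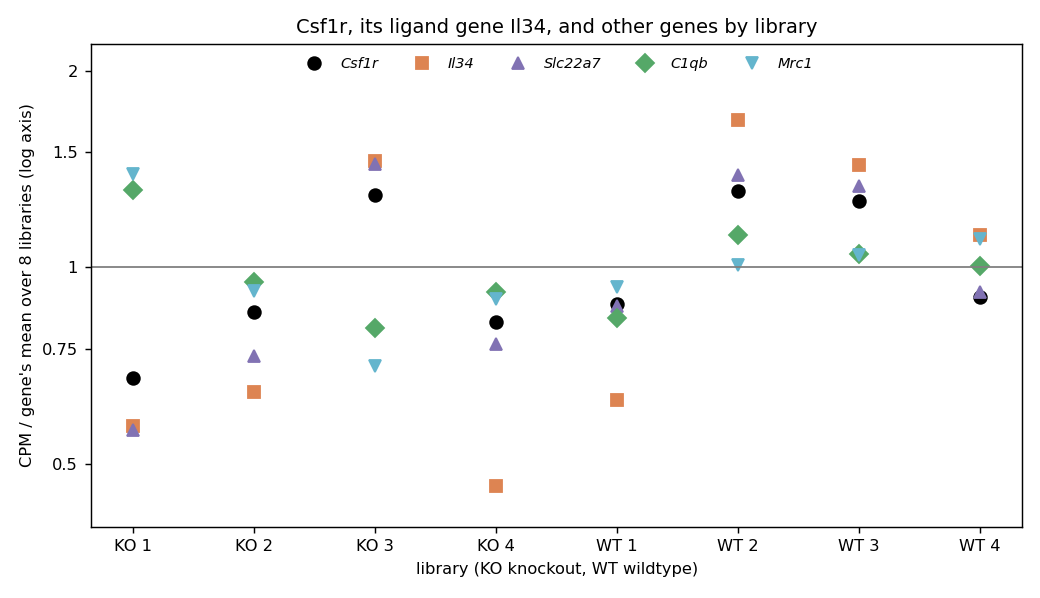
CPM of Csf1r, Il34, Slc22a7, C1qb and Mrc1 in each library, divided by the gene's mean over the 8 libraries (log axis; KO, labelled knockout; WT, labelled wildtype; 1 point per gene and library). Csf1r, Il34 and Slc22a7 are high in knockout 3, wildtype 2 and wildtype 3, whereas C1qb and Mrc1 are highest in knockout 1 and lowest in knockout 3.

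Scaled to exon length, the genes spread over a wide range of levels. The mean CPM per kb of exon over the 8 libraries was highest for Lyz2 (26.4 ± 5.08), then Csf1r (16.9 ± 4.20), C1qa (11.3 ± 3.50), C1qb (9.64 ± 1.58), C1qc (4.26 ± 0.87), Cd68 (2.29 ± 0.32), Adgre1 (1.40 ± 0.34), Cx3cr1 (1.09 ± 0.40), Mrc1 (1.05 ± 0.21) and Fcgr1 (0.64 ± 0.19; SD, n = 8). Neighbours in this order were compared within libraries by an exact sign-flip permutation test, two-sided, adjusted over 9 pairs. The order, and so the pairs and their direction, came from these same values. The p-values therefore describe how steady each step was over the libraries and are no independent support for the order. C1qb was above C1qc, C1qc above Cd68, Cd68 above Adgre1 and Mrc1 above Fcgr1 in 8 of 8 libraries (adjusted p = 0.0176 each). Lyz2 was above Csf1r in 7 of 8 libraries (adjusted p = 0.0352), and Adgre1 above Cx3cr1 in 7 of 8 (adjusted p = 0.0281). Csf1r and C1qa (7 of 8, adjusted p = 0.0603), C1qa and C1qb (6 of 8, adjusted p = 0.0791), and Cx3cr1 and Mrc1 (4 of 8, adjusted p = 0.977) did not differ beyond their spread. Lengths are those of all annotated exons of a gene joined, which can be longer than the transcripts in use, above all for Cx3cr1, whose annotation spans other genes.

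**Figure D3:**
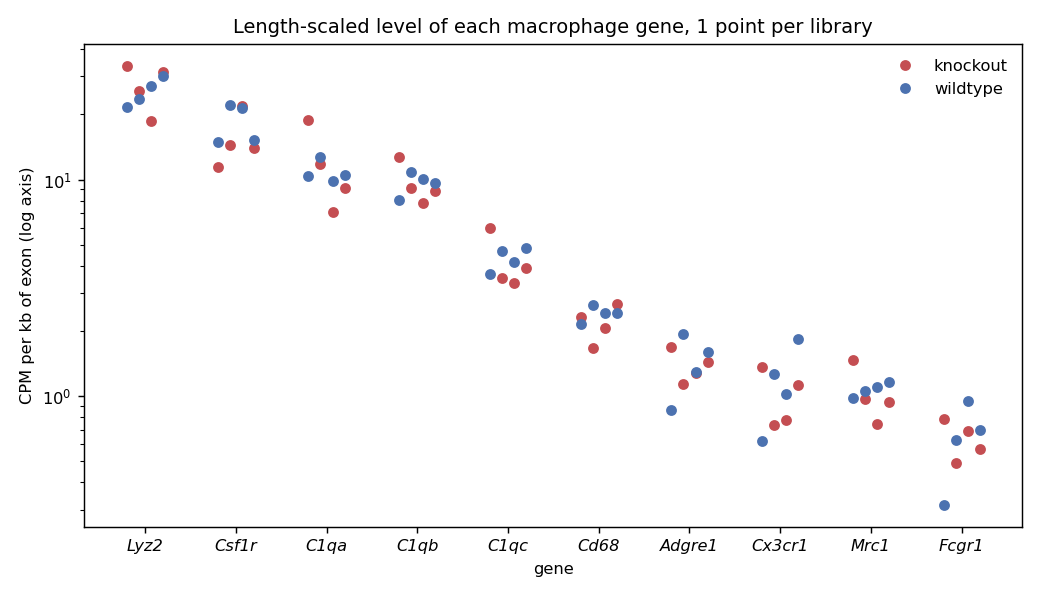
Level of each gene as CPM per kb of exon on a log axis, 1 point per library, labelled knockout in red and labelled wildtype in blue, ordered by mean. Lyz2 and Csf1r lie highest and Fcgr1 lowest, and red and blue points overlap for every gene.

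The levels of the genes relative to each other overlapped between the labels. Log2 ratios of 8 pairs were compared by an exact two-sided permutation test, whose smallest possible p for 4 against 4 libraries is 0.0286. The smallest p was that of Cx3cr1 to Adgre1, with a mean log2 ratio of -0.02 ± 0.19 under the knockout label and 0.16 ± 0.33 under the wildtype label (exact p = 0.457, adjusted over 8 ratios p = 0.914). Csf1r to Adgre1 had the widest range, from 3.48 in knockout 1 to 4.77 in knockout 3, a 2.43-fold range among libraries with the same label. Mrc1 to Adgre1 was at 0.47 ± 0.27 and 0.58 ± 0.39, with its extremes in wildtype 2 (0.10) and wildtype 1 (1.04). Lyz2 to Adgre1 was at 2.84 ± 0.28 and 2.78 ± 0.40.

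**Figure D4:**
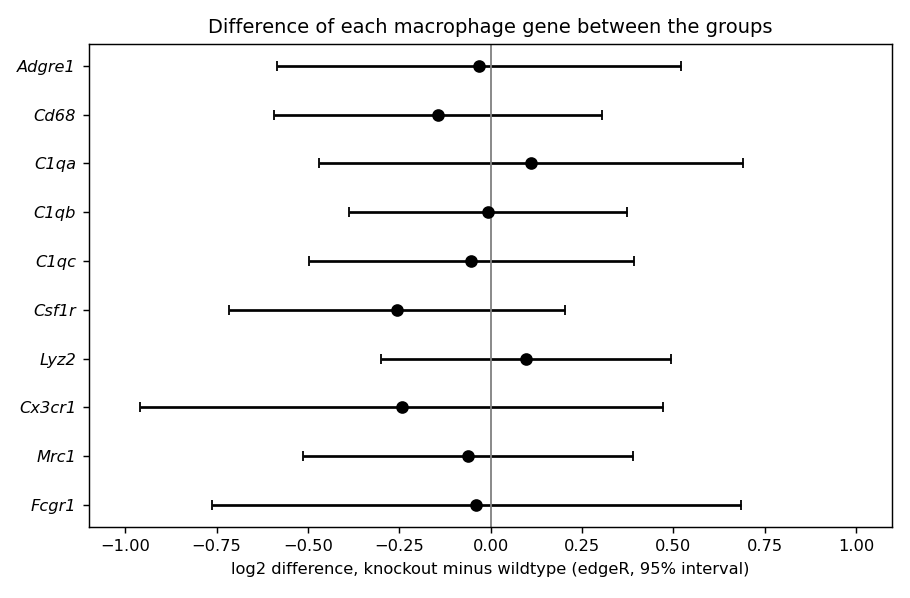
Log2 difference of each gene, labelled knockout minus labelled wildtype, as points with 95% intervals derived from edgeR's test (n = 4 and 4). All 10 intervals include 0 and lie between -1 and 1.

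Csf1r fell into separate clusters of libraries, so no correlation is given for its 9 pairs, of which 6 were negative in sign. Of these 6, the pairs with C1qb, C1qc and Cx3cr1 turned positive without knockout 1, and those with C1qa, Lyz2 and Mrc1 stayed negative. For the other 36 pairs, Pearson's r of log2(CPM + 0.5) over the 8 libraries was positive in 36 of 36, from 0.06 (Cd68 and C1qa) to 0.92 (C1qc and Mrc1), with a median of 0.61; over all pairs of tested genes the median was -0.001. Without the 2 libraries farthest from the median of a gene of the pair, 31 of 36 were positive. This is a description of 8 shared libraries, since all genes of a library share its depth and its makeup. By exact permutation tests over 40320 arrangements, adjusted over all 45 pairs, 2 of the 36 pairs passed. C1qc and Mrc1 had r = 0.92 (exact permutation p = 0.000744, adjusted p = 0.0335) and Spearman's rho = 0.90 (exact permutation p = 0.00456, adjusted p = 0.103). C1qb and C1qc had r = 0.91 (exact permutation p = 0.00201, adjusted p = 0.0452) and rho = 0.86 (exact permutation p = 0.0107, adjusted p = 0.121). Without the 2 libraries farthest from the median of the C1q gene, knockout 1 and knockout 3, r was 0.83 and 0.72.

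C1qb and Mrc1 had r = 0.89 (exact permutation p = 0.00357, adjusted p = 0.0536; rho = 0.83, exact permutation p = 0.0154), which was 0.63 without knockout 1 and knockout 3. C1qa and Mrc1 had r = 0.88 (exact permutation p = 0.0128, adjusted p = 0.0958; rho = 0.69, exact permutation p = 0.0694), but 0.14 without knockout 1 and knockout 3. Without the same libraries r went from 0.80 to 0.19 for C1qa and C1qc and from 0.87 to 0.49 for C1qa and C1qb. Without knockout 1 alone, r was 0.74 for C1qa and Mrc1, 0.53 for C1qa and C1qc and 0.72 for C1qa and C1qb. The relations of C1qa thus leaned on knockout 1 and knockout 3, and only 6 libraries remain without them. Adgre1 and Cx3cr1 had r = 0.84 (exact permutation p = 0.00952, adjusted p = 0.0857; rho = 0.90, exact permutation p = 0.00456), and 0.88 without wildtype 1 and wildtype 2, the farthest libraries for Adgre1. Adgre1 and Fcgr1 had r = 0.63 (exact permutation p = 0.0950, adjusted p = 0.225; rho = 0.52, exact permutation p = 0.197). Without the 2 libraries with adrenal transcripts, r was -0.36 for Adgre1 and Fcgr1, 0.64 for Adgre1 and Cx3cr1, and 0.97 for C1qc and Mrc1. Knockout 1, the highest library for the C1q genes and Mrc1, also had the highest red cell sum and the largest share of reads outside genes, 16.2%. Its T and NK cell list summed to 40.2 CPM against at most 20.2 CPM elsewhere, but Cd8a alone gave 35.8 CPM of that, and Cd3e was at 1.33 CPM there. Knockout 3, the lowest library for those 4 genes, had the smallest share of reads outside genes, 11.6%. The part of these in the co-variation was not tested. Without knockout 1 the median r of the 36 pairs was 0.55.

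**Figure D5:**
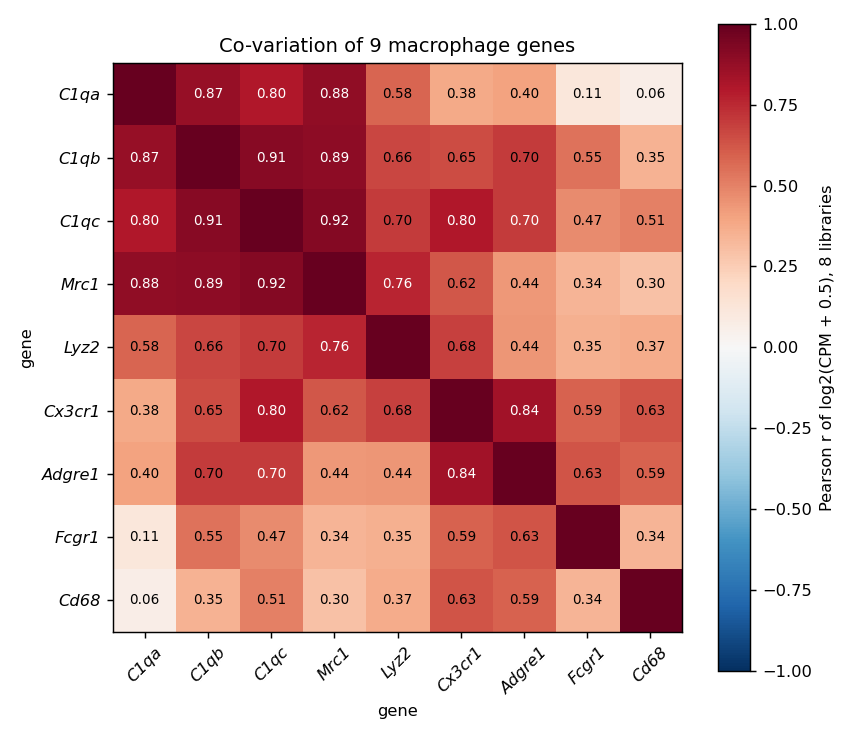
Pearson's r of log2(CPM + 0.5) over the 8 libraries for the 36 pairs of the 9 genes other than Csf1r; red is positive, blue negative, and each cell prints its r. All 36 pairs are positive, from 0.06 for Cd68 and C1qa to 0.92 for C1qc and Mrc1.

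Other genes were ranked by how closely their profile followed the mean standardized profile of all 10 macrophage genes. By Pearson's r over the 8 libraries, given without p since they were picked for it, the ranking was led by Tpx2 (0.97), a spindle protein, B2m (0.94), the light chain of MHC class I, Nus1 (0.94), Cdk1 (0.94), a kinase of the cell cycle, and Fabp5 (0.94), a fatty acid binding protein. Top2a (0.93), Mki67 (0.92) and Ccna2 (0.91), all of the cell cycle, were among the 12. B2m was at 619, 306, 319 and 343 CPM in knockout 1 to 4 and at 292, 513, 412 and 412 CPM in wildtype 1 to 4, with knockout 1 highest and wildtype 1 lowest. Mki67 was at 7.55, 2.87, 2.52 and 4.61 CPM in knockout 1 to 4 and at 2.31, 5.88, 5.88 and 3.75 CPM in wildtype 1 to 4, with the same libraries at its ends.

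Other genes of the pathway were read from lists, and 0 of their tested members passed over all genes. For comparison, 51.3% of all tested genes were positive and 4.00% had an edgeR unadjusted p under 0.05. Of 28 tested further macrophage and myeloid genes, 6 were positive and 22 negative, with a median log2 difference of -0.15 and 0 at an unadjusted p under 0.05. Mpeg1, which encodes the pore protein perforin-2, was at 17.4 ± 3.35 CPM under the knockout label and 21.4 ± 6.98 CPM under the wildtype label. Aif1, the gene of IBA1, had the lowest p of this list, at 1.44 ± 0.53 and 2.21 ± 0.75 CPM (log2 difference -0.62, SE 0.34, edgeR unadjusted p = 0.0944). Of 4 tested Fc receptor genes, 3 were negative. Fcgr2b, the inhibitory receptor, was at 30.5 ± 3.82 and 40.0 ± 11.8 CPM, and Fcgr4 at 0.46 ± 0.23 and 1.22 ± 0.92 CPM (log2 difference -1.42, SE 0.65, edgeR unadjusted p = 0.0536).

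A further list holds genes of the Lyve1 and Folr2 macrophage type, which also carries Mrc1. All 8 tested genes of this list were positive, with a median of 0.40 and 0 at an unadjusted p under 0.05. Among all tested genes, 51.3% were positive. Cbr2, a carbonyl reductase, was at 8.37 ± 2.71 and 5.42 ± 2.28 CPM (log2 difference 0.63, SE 0.33), Pf4 at 1.25 ± 0.63 and 0.71 ± 0.16 CPM, and F13a1, coagulation factor XIII A, at 2.55 ± 0.49 and 1.76 ± 0.74 CPM. Adipocyte genes, whose list was also positive for 8 of 8, summed to 254 to 847 CPM under the knockout label and 242 to 859 CPM under the wildtype label, and their part in these values was not tested. Of the 9 transcription factor genes, 6 were positive. Maf was at 384 ± 32.9 and 313 ± 30.0 CPM (log2 difference 0.30, SE 0.11, edgeR unadjusted p = 0.0203), and Spi1, the gene of PU.1, at 2.17 to 3.43 CPM and 2.11 to 4.01 CPM. Which cells of the whole kidney gave the Maf reads was not tested. Irf5 was highest in the 3 libraries highest in Csf1r, at 32.7 to 33.8 CPM, against 15.7 to 24.1 CPM elsewhere.

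C1q acts with the proteases C1r and C1s, and it feeds C4 and C2. C1ra was at 6.15 ± 0.98 and 7.39 ± 1.33 CPM. C4b was at 20.5 ± 6.15 CPM under the knockout label and 38.7 ± 11.7 CPM under the wildtype label (log2 difference -0.91, SE 0.26, edgeR unadjusted p = 0.00558), with its near-identical copy C4a making the level uncertain. C2 was at 31.8 to 35.6 and 31.1 to 53.8 CPM (log2 difference -0.39, SE 0.16, edgeR unadjusted p = 0.0367), and Serping1, the inhibitor of C1, at 74.0 ± 13.2 and 59.6 ± 8.29 CPM (log2 difference 0.31, SE 0.14, edgeR unadjusted p = 0.0485). These 3 were the genes at an unadjusted p under 0.05 among 8 tested partners, 1 positive and 2 negative. Among all tested genes, 4.00% had an edgeR p under 0.05, 2.17% higher and 1.84% lower under the knockout label.

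Macrophages also present antigen on MHC class II. Cd74, the invariant chain, was at 269, 135, 239 and 168 CPM in knockout 1 to 4 and at 97.8, 422, 284 and 240 CPM in wildtype 1 to 4. Its lowest library was wildtype 1 and its highest wildtype 2, the same as for Adgre1. Of 7 tested genes of this list, 6 were negative, with a median of -0.30 and 0 at an unadjusted p under 0.05.

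Markers of other blood cells differed widely in level. Jchain of plasma cells was at 24.5 to 102.7 CPM, Ighm of B cells at 6.88 to 40.2 CPM and Cd8a of T cells at 1.88 to 35.8 CPM. Ly6g of neutrophils had at most 1 read in any library, and the neutrophil list summed to at most 9.45 CPM under the knockout label and at most 13.6 CPM, in wildtype 1, under the wildtype label. Cd3e of T cells was at 0.45 to 1.40 CPM, and Fcer1a of mast cells had at most 1 read. The monocyte gene Ccr2 was at 7.61, 4.59, 13.9 and 4.54 CPM in knockout 1 to 4 and at 4.42, 12.1, 12.6 and 10.3 CPM in wildtype 1 to 4. Its 3 highest libraries were again knockout 3, wildtype 2 and wildtype 3. Ly6c2, which marks the classical monocyte, was at 0.48 to 1.23 CPM. Xcr1 of dendritic cells was at 0.61 ± 0.31 and 1.44 ± 0.60 CPM (log2 difference -1.24, SE 0.45, edgeR unadjusted p = 0.0194). Of 5 tested dendritic genes, however, 3 were positive and 2 negative, with a median of 0.19. At an edgeR unadjusted p under 0.05 were 1 positive and 1 negative gene, against 2.17% and 1.84% of all genes. The 10 vascular endothelial genes were all positive, 4 of them at an unadjusted p under 0.05 (over all genes 51.3% were positive, and 2.17% were higher under the knockout label at that p), and summed to 543 to 622 CPM and 465 to 522 CPM.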

How the data were processed

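The authors deposited whole-number read counts per gene, without normalization. The submitters' processing notes name STAR, HTSeq, edgeR and build mm9; no source used here gives versions or the annotation. Per the labels the kit kept strand, but per the deposited file names the counting ignored it. Libraries were grouped by title. Lines naming no gene (11.6% to 16.2% of reads outside genes, 2.05% to 2.31% ambiguous, 15.8% to 20.9% not unique) were left out. Symbols, exon lengths and GRCm38 coordinates were looked up by identifier in GENCODE M21 (32860 of 37583 had a symbol), with no conversion from mm9. edgeR 4.0.16 in R 4.3.3 (quasi-likelihood, robust, TMM, filterByExpr with minimum count 10 and total 15) tested 14433 genes, two-sided, with Benjamini-Hochberg adjustment and threshold 0.05; its steps were tested on simulated data. CPM use TMM-scaled sizes. Ratios and correlations used log2 with 0.5 CPM added. No 2 libraries were copies (chi-square per gene 10.8 to 85.5). The genes and lists were chosen with earlier results of these data known. Named are the 10 genes, the targeted genes, per list up to 4 genes of lowest p and 2 most abundant, and the 12 closest to the mean profile; the genes closest to Csf1r, and Spi1, Stab2, Ly6g, Ly6c2, Fcer1a, Hmgxb3 and Lyz1, fall outside that rule and were chosen after their values were seen. Alternatives were other normalizations, filters and tools (DESeq2 1.42.0, limma 3.58.1), a replicate block and omitted libraries.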

Additional observations from a re-analysis of the deposited data

How the results depend on the processing

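None of the 10 macrophage genes was called under any of 16 alternatives, and their smallest adjusted p among them was 0.492 (edgeR without knockout 3). Over all genes, edgeR called 0, DESeq2 called 4 (Ndufs5, Col19a1, Lpl and ENSMUSG00000054588), and edgeR without the 2 heat-shock libraries called 1 (Ndufs5). Leaving out 1 library gave 0 to 2 calls: C4a without knockout 3, Ndufs5 without knockout 4, and BC023105 and Gm4841 without wildtype 1. The cause was not tested. With no adjustment, 578 genes had p under 0.05, against 1252 without knockout 3, 1250 without wildtype 1, 904 without the 2 heat-shock libraries, 1075 with the replicate block and 343 without wildtype 2; DESeq2 had 715 of 24562 and edgeR with no filter 879 of 24618.

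The 10 differences are small, so signs moved: 130 of 160 values kept theirs. By library size alone the log2 difference was 0.0035 for Adgre1 and 0.026 for C1qb. By limma-voom it was 0.0092 for Adgre1 and 0.034 for Fcgr1. Without the 2 heat-shock libraries it was 0.063 for Adgre1, 0.080 for C1qb, 0.10 for C1qc, 0.038 for Mrc1 and 0.18 for Fcgr1. Leaving out 1 library, it ran from -0.21 to 0.15 for Adgre1, from -0.22 to 0.29 for C1qa, from -0.17 to 0.078 for C1qb, from -0.27 to 0.038 for C1qc, from -0.016 to 0.24 for Lyz2, from -0.45 to 0.045 for Cx3cr1, from -0.28 to 0.063 for Mrc1 and from -0.26 to 0.20 for Fcgr1.

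Whether replicate numbers pair the samples was not settled: deviations of same-numbered libraries correlated at 0.25, -0.23, 0.30 and 0.31. Knockout 1 and knockout 4 correlated best with the wildtype library of their own number. Knockout 2 correlated best with wildtype 1 (0.46) and knockout 3 with wildtype 2 (0.36). With the replicate block, 0 genes were called, and the log2 difference was 0.00025 for Adgre1 and 0.0077 for Fcgr1.

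Of the ratio differences, 89 kept their sign and 15 did not. Without the 2 adrenal libraries that of C1qc to C1qb was 0.0039, Cd68 to Adgre1 0.029 and Fcgr1 to Adgre1 -0.013. Without the 2 heat-shock libraries C1qc to C1qb was 0.0043 and Lyz2 to Adgre1 -0.11. Leaving out 1 library, they ran from -0.074 to 0.15 for C1qa to C1qb, from -0.26 to 0.050 for Mrc1 to Adgre1, from -0.13 to 0.20 for Lyz2 to Adgre1, from -0.26 to 0.0087 for Cd68 to Adgre1 and from -0.13 to 0.20 for Fcgr1 to Adgre1. The median r over all 45 pairs was 0.51, and 0.42 to 0.57 leaving out 1 library; over the 36 pairs without Csf1r, an alternative chosen after seeing the data, it was 0.61. Depth limits Fcgr1 and Cd68 most, at 12 to 39 and 33 to 53 reads per library.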
